A study of Rattus norvegicus with 6 samples.

Results

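miR-124 and miR-128, a pair of neuronal microRNAs, were followed in the orbitofrontal cortex of rats weeks after repeated mild brain injury. Their rows were taken by name from the deposited table of small RNA read counts, as every row named miR-124 or miR-128 of any arm or precursor. There were 5 such rows of 842 in all: rno-miR-124-3p, rno-miR-124-5p, rno-miR-128-3p, rno-miR-128-1-5p and rno-miR-128-2-5p, written below without the rat prefix. The rule by name used no measured value, though earlier results of these data were known when the strands were chosen. All 5 passed the filter on low counts, as did 534 of the 842 rows.

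All animals were adult male Sprague Dawley rats, an outbred stock, and each had 3 surgeries, on days 1, 4 and 7. The 3 injured animals received a controlled cortical impact at every surgery, a piston blow at a velocity of 5 m/s and an impact depth of 2 mm. The 3 sham animals were operated on with no impact. Tissue was taken on day 42 from each animal, as dissected cortex with all its cell types, and the comparison asks which microRNAs differed at that time. Libraries held 12538288 to 23680840 counted reads. In such bulk tissue, fewer neurons and less of a microRNA per neuron cannot be told apart.

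A microRNA is cut from the arms of a hairpin precursor, and the strand loaded into an Argonaute protein represses mRNAs that pair with its seed, bases 2 to 8. miR-124 is characteristic of neurons and, in cell and mouse studies, represses Ptbp1, a splicing repressor of non-neuronal cells, as neurons differentiate. miR-128 is enriched in brain, and in mice its loss from dopamine-responsive neurons causes overactivity and seizures. For both, the 3p strand is the one mainly loaded, and the 5p strand is mainly a by-product of the same precursor.

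The miR-128 sequences are shown because they decide what each row can measure. RefSeq on the GRCr8 assembly held a mature sequence for 3 of the 5 rows, all 3 of miR-128. The seed stands in capitals, written 5′ to 3′.
miR-128-3p: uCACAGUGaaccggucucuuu
miR-128-1-5p: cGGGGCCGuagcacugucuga
miR-128-2-5p: gGGGGCCGaugcacuguaaga
Both precursors give the same 3p strand, so the miR-128-3p count cannot be divided between them. The 5p strands had the same seed and were identical at 16 of 21 bases, and only these rows tell the precursors apart. The precursors follow, with both mature strands in capitals.
Mir128-1: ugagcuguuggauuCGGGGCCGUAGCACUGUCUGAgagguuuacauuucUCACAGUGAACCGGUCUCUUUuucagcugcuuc
Mir128-2: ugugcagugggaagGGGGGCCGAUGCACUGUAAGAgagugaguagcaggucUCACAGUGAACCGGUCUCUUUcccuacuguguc
In GRCr8, Mir128-1 lies at chr13:42251884-42251965 on the plus strand, within the span of R3hdm1, which encodes a protein with an R3H nucleic acid binding domain. Mir128-2 lies at chr8:120963795-120963878 on the minus strand, within the span of Arpp21, which encodes a phosphoprotein regulated by cyclic AMP.

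The miR-128-3p seed also occurs, shifted by 1 base to bases 3 to 9, in miR-27a-3p and miR-27b-3p, microRNAs of many cell types, shown here with that stretch in capitals.
miR-27a-3p: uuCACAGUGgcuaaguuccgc
miR-27b-3p: uuCACAGUGgcuaaguucugc
Among the 693 mature rat sequences searched, no other name held the miR-128-3p seed at bases 2 to 8 or 3 to 9.

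None of the 5 strands differed between injured and sham cortex by the test. miR-128-3p had the largest estimate, with 99859 ± 13527 CPM in injured and 81357 ± 26807 CPM in sham animals (SD, n = 3 each), where CPM is the count per 1000000 reads after TMM scaling. miR-124-3p had 4610 ± 771 CPM in injured and 4782 ± 1086 CPM in sham animals. The 5p strands of both were also within the spread between animals. With edgeR's quasi-likelihood test and Benjamini-Hochberg adjustment over 534 microRNAs, 0 passed an adjusted p of 0.05, a background of 0%, and 12 of 534 had an unadjusted p under 0.05. None of the 5 was among those 12, a background of 2.25%. Calls were also 0 with limma-voom, with limma on log2 TPM values and with DESeq2. The smallest adjusted p over all microRNAs was 0.052 with DESeq2, just above the threshold, against 0.813 with edgeR. That DESeq2 value was not of a miR-124 or miR-128 strand.

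miR-128-3p, the strand with the most reads, ranked 3 among the rows of each of the 6 libraries, behind miR-9a-5p and miR-9b-3p, whose counts are nearly equal to each other. It had 92982.5, 115443 and 91152.5 CPM in injured replicates 1, 2 and 3, against 77152.3, 110017 and 56900.7 CPM in sham replicates 1, 2 and 3. Injured replicate 2 and sham replicate 2 were both high, sham replicate 3 was the lowest, and the groups overlapped. Its reads were 8.96%, 10.6% and 9.61% of all counted reads in injured animals, against 7.87%, 10.2% and 6.46% in sham animals. That total sums over all names, and 26 pairs of names had counts within 1% of each other in every library. Reads counted under more than 1 name would lower these shares. The log2 fold change of miR-128-3p was 0.30 ± 0.24 (SE), with an edgeR adjusted p of 0.879 and a 95% interval from -0.26 to 0.85. As a ratio of injured to sham, that interval ran from 0.835 to 1.80. The estimate rested in part on sham replicate 3, since it was 0.09 without that library. Without sham replicate 2 it was 0.61.

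miR-124-3p, the strand that represses Ptbp1, had 4139, 4192 and 5500.0 CPM in injured replicates 1, 2 and 3, against 4312, 4012 and 6024 CPM in sham replicates 1, 2 and 3. Replicate 3 of either group was high and the other 4 libraries lay close together, so the groups overlapped. The log2 fold change was -0.05 ± 0.20 (SE), with an edgeR adjusted p of 0.954 and a 95% interval from -0.52 to 0.41. The sign was not stable, with 0.15 without sham replicate 3, 0.02 without injured replicate 1, 0.04 without injured replicate 2 and 0.11 with upper-quartile scaling. That scaling moved the median of all tested microRNAs by 0.15, and relative to the median the value was -0.0025 against -0.02 with TMM.

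miR-124-5p had 173.7, 147.5 and 217.8 CPM in injured replicates 1, 2 and 3, against 200.4, 146.3 and 232.1 CPM in sham replicates 1, 2 and 3. Replicate 2 was the lowest and replicate 3 the highest library of either group. On the log2 scale injured over sham was -0.10 ± 0.23 (SE), with limits of -0.65 and 0.45 at 95% and an edgeR adjusted p of 0.919, and it was 0.05 both without sham replicate 3 and without injured replicate 2. With upper-quartile scaling it was 0.06, or -0.06 relative to the median of all tested microRNAs.

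**Figure D1:**
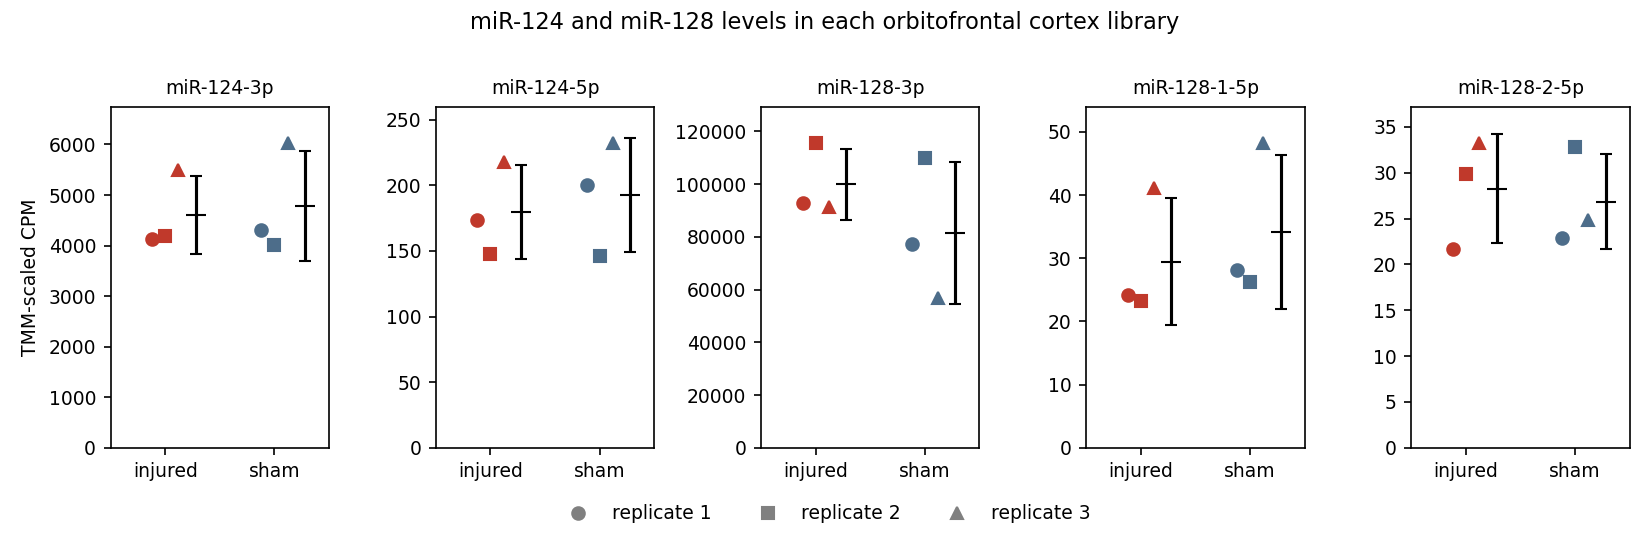
Level of each miR-124 and miR-128 strand in TMM-scaled CPM (linear axes from 0, own scale per panel) for the 3 injured and 3 sham libraries. Symbols are replicates, bars are the mean ± SD, and injured and sham points overlap in all 5 panels.

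The 5p strands that mark the miR-128 precursors were far less abundant. miR-128-1-5p, from Mir128-1, had 24.2, 23.2 and 41.0 CPM in injured replicates 1, 2 and 3, against 28.1, 26.2 and 48.2 CPM in sham replicates 1, 2 and 3. Replicate 3 again stood above the other libraries of its group. miR-128-2-5p, from Mir128-2, had 21.7, 29.8 and 33.2 CPM in injured replicates 1, 2 and 3, against 22.9, 32.8 and 24.9 CPM in sham replicates 1, 2 and 3. Here sham replicate 3 was not raised. The log2 fold changes were -0.21 ± 0.33 for miR-128-1-5p and 0.07 ± 0.23 for miR-128-2-5p (SE), at edgeR adjusted p-values of 0.901 and 0.954. The 95% intervals ran from -0.98 to 0.55 and from -0.47 to 0.62. The first was 0.12 without sham replicate 3, and the second was -0.02 without injured replicate 3.

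In order of reads the strands ran from miR-128-3p through miR-124-3p and miR-124-5p to the miR-128 5p rows, in every library. The last 2 rows did not differ beyond their spread, at 29.5 ± 10.1 and 28.2 ± 5.9 CPM in injured and 34.2 ± 12.2 and 26.8 ± 5.2 CPM in sham animals (SD, n = 3 each). Such levels have no length term, and the 3 miR-128 strands are 21 bases each. How well each strand is ligated into a library was not measured.

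Relative to other microRNAs with at least 10 CPM, the strands varied more than the median between animals of 1 group. That within-group SD was 0.28 log2 units for miR-124-3p, 0.31 for miR-124-5p, 0.36 for miR-128-3p, 0.47 for miR-128-1-5p and 0.29 for miR-128-2-5p. The median over 351 microRNAs was 0.25. miR-128-1-5p varied more than 90.0% of them.

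The strands split into separate profiles over the 6 libraries, whichever group an animal belonged to. On log2 CPM centred on its own mean, miR-124-3p stood at 0.25 in injured replicate 3 and at 0.38 in sham replicate 3. miR-128-1-5p stood at 0.42 in injured replicate 3 and at 0.66 in sham replicate 3. Both were below their mean in the other 4 libraries. miR-128-3p went the other way in sham replicate 3, at -0.63, and was highest in injured replicate 2, at 0.39.

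**Figure D2:**
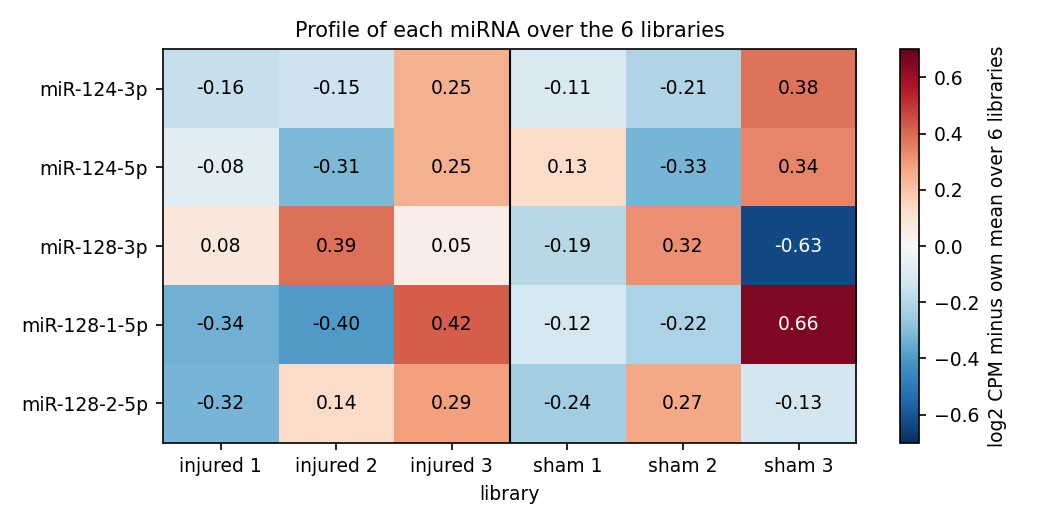
Log2 CPM of each strand minus its own mean over the 6 libraries, with injured libraries left of the line and sham libraries right of it. miR-124-3p, miR-124-5p and miR-128-1-5p are all raised in replicate 3 of both groups, while miR-128-3p is lowest in sham replicate 3, at -0.63.

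Profile distance was measured as the root mean square difference between centred log2 profiles over the 6 libraries. It was 0.13 log2 units between miR-124-3p and miR-124-5p and 0.18 between miR-124-3p and miR-128-1-5p. From miR-128-3p to miR-128-1-5p, a strand of 1 of its own precursors, it was 0.69. Of the 350 other microRNAs with at least 10 CPM, 316 had a profile nearer to that of miR-128-3p than miR-128-1-5p had. A strand that varies much, as miR-128-1-5p did, lies far from most profiles on this measure. miR-128-2-5p lay 0.30 from miR-128-3p, with 104 others nearer, and 0.44 from miR-128-1-5p. For miR-124-3p, 12 others were nearer than miR-124-5p. These distances describe 6 libraries that share scaling and carry no test.

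The nearest profiles came from other microRNAs. miR-25-3p, of the miR-106b cluster, was nearest to miR-124-3p at 0.08 log2 units, followed by miR-423-5p and miR-125a-3p at 0.09 each. miR-107-3p was nearest to miR-124-5p at 0.07, followed by miR-582-3p at 0.08 and miR-25-3p at 0.10. miR-412-5p, of the imprinted Dlk1-Dio3 cluster, was nearest to miR-128-3p at 0.07, followed by miR-409b and miR-409a-3p at 0.09 each, whose counts lay within 1.42% of each other in every library.

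For miR-128-1-5p the nearest were miR-133a-3p and miR-133c at 0.12 each and let-7b-3p at 0.16. The miR-133 names, known from striated muscle, had counts within 1.2% of each other. miR-128-2-5p had miR-485-5p at 0.13, miR-330-5p at 0.14 and the neuronal miR-129-5p at 0.16.

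Ratios between strands were taken within each library, where scaling cancels. Reads of miR-128-3p outnumbered those of miR-124-3p by 22.5-fold, 27.5-fold and 16.6-fold in injured replicates 1, 2 and 3, against 17.9-fold, 27.4-fold and 9.45-fold in sham replicates 1, 2 and 3. The ratio was highest in replicate 2 and lowest in replicate 3 of either group. On the log2 scale it averaged 4.44 ± 0.37 in injured and 4.06 ± 0.77 in sham animals (SD, n = 3 each). The difference was 0.38, with an exact two-sided permutation p of 0.6, where 0.1 is the smallest that 3 against 3 allows. Without sham replicate 3 the difference was -0.03.

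miR-124 gave mainly its 3p strand. Arms were paired by name, and how many precursors share the miR-124 names was not examined. The 5p strand held 4.03%, 3.40% and 3.81% of miR-124 reads in injured replicates 1, 2 and 3, against 4.44%, 3.52% and 3.71% in sham replicates 1, 2 and 3. The log2 ratio of 5p to 3p was -4.69 ± 0.13 in injured and -4.63 ± 0.18 in sham animals (SD, n = 3 each). limma gave a difference of -0.05 ± 0.24 (SE), with a 95% interval from -0.58 to 0.48 and an adjusted p of 0.986 over 153 hairpins. It was 0.05 without sham replicate 1 and 0.02 without injured replicate 2. limma called 0 of the 153, a background of 0%. At an unadjusted p under 0.05 there were 5, a background of 3.27%, and in 5, again 3.27%, the groups did not overlap. miR-124 was in neither set. The miR-124 ratio was among the steadier ones, with an SD over 6 libraries of 0.14 log2 units against a median of 0.36 over hairpins. Only 11 of the 153 had a smaller SD. Hairpins entered with a mean of as few as 10 reads in an arm, where counting error is larger. miR-124-5p had at least 2343 reads in every library, and the part of read depth in this rank was not tested.

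miR-128 gave still fewer 5p reads. Both 5p rows together held 0.0493%, 0.0459% and 0.0814% of miR-128 reads in injured replicates 1, 2 and 3, against 0.0661%, 0.0536% and 0.128% in sham replicates 1, 2 and 3. Replicate 3 had the largest 5p share in either group. The log2 ratio of summed 5p to 3p was -10.78 ± 0.45 in injured and -10.34 ± 0.66 in sham animals (SD, n = 3 each), a difference of -0.43 with an exact permutation p of 0.5. Without sham replicate 3 the difference was -0.065. The SD of this ratio over 6 libraries was 0.56 log2 units, against 0.14 for miR-124.

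The share of miR-128 5p reads from Mir128-1 differed between libraries of the same group. It was 52.7%, 43.7% and 55.3% in injured replicates 1, 2 and 3, against 55.1%, 44.5% and 66.0% in sham replicates 1, 2 and 3. Exact binomial 95% intervals, which cover counting error only, ran from 52.9% to 57.7% in injured replicate 3, from 63.8% to 68.0% in sham replicate 3 and from 41.5% to 47.5% in sham replicate 2. The log2 ratio of miR-128-1-5p to miR-128-2-5p was 0.03 ± 0.35 in injured and 0.31 ± 0.64 in sham animals (SD, n = 3 each), a difference of -0.28 with an exact permutation p of 0.5. It was 0.05 without sham replicate 3. Both this and the summed miR-128 ratio were chosen after the counts were seen.

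**Figure D3:**
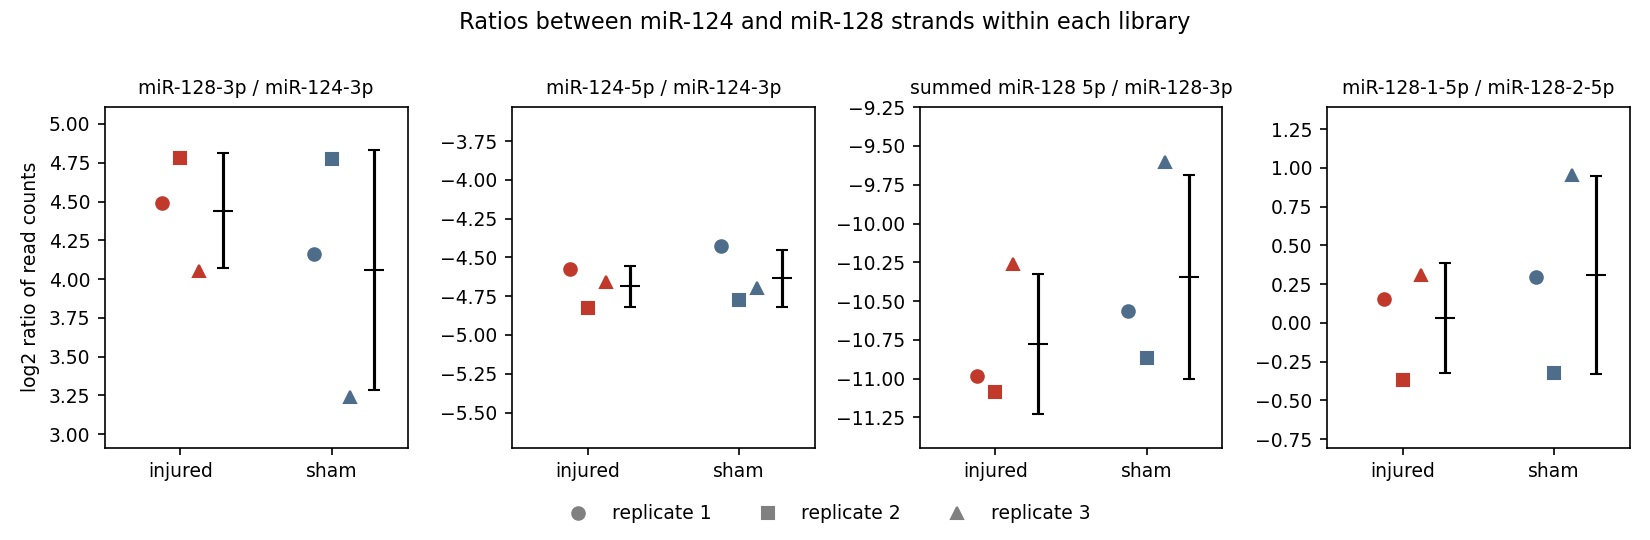
Log2 ratios of read counts within each library, injured left of sham, with symbols for replicates and bars for the mean ± SD; every panel spans the same number of log2 units. The miR-124 arm ratio spreads least, with an SD of 0.14 over 6 libraries, and no ratio separates the groups.

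The miR-27 strands that hold the miR-128-3p seed stretch were also within the spread between animals. miR-27b-3p had 5364 ± 223 CPM in injured and 5799.9 ± 267 CPM in sham animals (SD, n = 3 each), or -0.11 ± 0.11 (SE) as a log2 fold change. miR-27a-3p had 434 ± 25 CPM in injured and 381 ± 93 CPM in sham animals, or 0.19 ± 0.21. Both had edgeR adjusted p-values of 0.879.

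Other neuron-enriched microRNAs, a list of 24 besides these strands, all passed the filter. edgeR called 0 higher and 0 lower, 0 had an unadjusted p under 0.05, and 14 had positive and 10 negative log2 fold changes. Their median was 0.09, against -0.03 over all 534, of which 244 or 45.7% were positive. miR-149-5p had 799 ± 33 CPM in injured and 669 ± 25 CPM in sham animals (SD, n = 3 each), or 0.26 ± 0.13 (SE) as a log2 fold change. miR-212-3p, made with miR-132 and induced by neuronal activity, had 176 ± 34 CPM in injured and 238 ± 55 CPM in sham animals, or -0.43 ± 0.23. Both had edgeR adjusted p-values of 0.879.

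miR-149-5p and miR-330-3p were the 2 of 24 whose groups did not overlap, 8.33% against a background of 7.87%. miR-330-3p had 340 ± 46 CPM in injured and 292 ± 11 CPM in sham animals, and it is named here because its groups were apart. None of the 5 miR-124 and miR-128 strands had groups that were apart. miR-9a-5p, the leading neural microRNA, had -0.01 on the log2 scale, with 95% limits of -0.29 and 0.27, narrower than that of miR-128-3p.

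**Figure D4:**
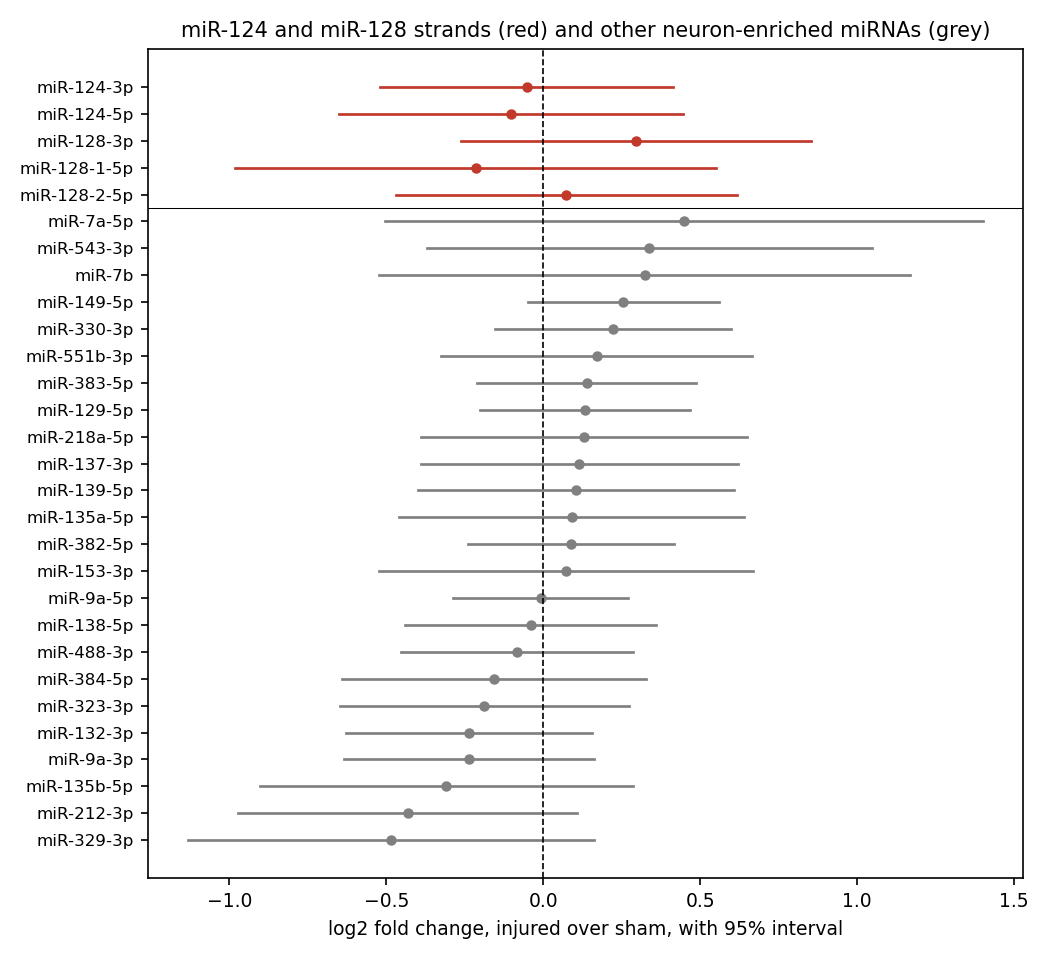
Log2 fold changes of injured over sham with 95% intervals from edgeR for the 5 miR-124 and miR-128 strands (red, top) and 24 other neuron-enriched microRNAs (grey). The intervals of all 5 strands cross 0, from -0.26 to 0.85 for miR-128-3p.

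Summed levels of markers of other cells rested largely on the leading member of each list, except in the miR-200 family. The immune and microglial list, all 6 of 6 present, summed to 455 to 511 CPM in injured and 436 to 779 CPM in sham animals, highest in sham replicate 3. That peak was miR-150-5p, a microRNA of lymphocytes, at 698.8 CPM. The other 5 members summed to 54.8 to 79.4 CPM in injured and 79.8 to 88.0 CPM in sham animals, highest in sham replicate 1. These groups were narrowly apart, as in 7.87% of all tested rows, and only with miR-150-5p left out. By row, miR-142-5p and miR-155-5p had groups apart, both lower in injured animals, while miR-142-3p, miR-223-3p and miR-146a-5p overlapped. The vessel list, 5 of 5 and led by smooth-muscle miR-143-3p, summed to 28936 to 47102 CPM in injured and 24858 to 36758 CPM in sham animals, highest in injured replicate 2 and lowest in sham replicate 3. Without miR-143-3p it summed to 5359.8 to 7233 CPM in injured and 5904 to 6858 CPM in sham animals, lowest in injured replicate 3. By row the vessel list was split in sham replicate 3. miR-145-5p and miR-126a-5p were highest there, at 320.1 and 473.8 CPM. miR-143-3p and miR-145-3p were lowest there, at 18953.8 and 13.5 CPM. miR-126a-3p was at 5097 CPM there, within its range of 4648 to 6629 CPM over all libraries. The red blood cell list, 3 of 3, summed to 23.5 to 43.1 CPM in injured and 51.8 to 92.7 CPM in sham animals, groups that did not overlap, as in 7.87% of all tested rows. By row only miR-451-5p had groups apart, at a log2 fold change of -1.15 ± 0.32 (SE). Its edgeR p was 0.0083 unadjusted and 0.879 adjusted. miR-144-3p and miR-144-5p overlapped, with log2 fold changes of -0.65 and -0.82. These 2 summed to 4.20 to 8.50 CPM in injured and 6.17 to 13.8 CPM in sham animals.

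The miR-200 family of epithelium, 5 of 5 and led by miR-200a-3p, summed to 7.68 to 1715 CPM in injured and 48.0 to 3528 CPM in sham animals, highest in sham replicate 1 and injured replicate 2. Without miR-200a-3p it still summed to 5.58 to 899.9 CPM in injured and 27.3 to 1964 CPM in sham animals. Without sham replicate 1 and injured replicate 2 the log2 fold change of miR-128-3p was 0.16 and that of miR-124-3p -0.03. The oligodendrocyte list, 4 of 4 and led by miR-219a-2-3p, summed to 1213 to 1923 CPM in injured and 1257 to 2121 CPM in sham animals. The choroid plexus pair, led by miR-204-5p, summed to 449 to 627 CPM in injured and 469 to 573 CPM in sham animals. edgeR called 0 members of these 6 lists, and no listed marker, neuronal ones included, was at 0 in any library. All members had negative log2 fold changes in the immune (6), red blood cell (3), miR-200 (5) and oligodendrocyte (4) lists. In the vessel list 3 of 5 were negative, and both choroid plexus members were positive. Of all 534 tested rows, 290 were negative, and whether the lists exceed that share was not tested. The part of other cells in the profiles of miR-124 and miR-128 was not tested.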

How the data were processed

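Small RNA libraries from the orbitofrontal cortex of 3 injured and 3 sham rats were built by adapter ligation with gel selection, per the labels' protocols. Bowtie and the build rn6 are named in the submitters' processing notes. How reads were filtered, counted and annotated is not stated in these notes or labels. Raw read counts per microRNA name were deposited by the authors. The deposited TPM values equal counts scaled to 1000000 per library, with no length term.

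Counts were tested with edgeR 4.0.16 in R 4.3.3 (TMM, filterByExpr with minimum count 10 and total 15, quasi-likelihood test, Benjamini-Hochberg over all 534 rows kept). The standard error is the absolute log2 fold change over the square root of F. Arm ratios were tested with limma 3.58.1, with a pseudocount of 0.5 and a mean count of at least 10 per arm. DESeq2 1.42.0, limma-voom and limma on log2(TPM + 1) were alternatives. Single ratios had exact permutation tests. Profiles used log2 CPM with a prior count of 2. Replicate numbers name libraries, which are separate animals per the labels. The same number in either group goes with neighbouring running numbers in the submitters' titles, as described below. The procedures were tested on simulated data.

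Named microRNAs were the 5 strands, the 3 nearest profiles to each, miR-27a-3p, miR-27b-3p, miR-9a-5p, the 2 neuron-list members with the smallest p, and the leading marker of each other cell type. No row had counts within 1% of a miR-124 or miR-128 row in every library. The members and lists were chosen with earlier results of these data known.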

Additional observations from a re-analysis of the deposited data

How the results depend on the processing

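The count of calls over all microRNAs stayed at 0 under every alternative run but 1. Without sham replicate 1 and injured replicate 2, where the miR-200 family was highest, edgeR made 1 call, not a miR-124 or miR-128 strand. In that fit the log2 fold change was 0.077 for miR-124-5p and -0.047 for miR-128-2-5p, both of opposite sign to the full data. Upper-quartile scaling gave 0.11 for miR-124-3p and 0.059 for miR-124-5p, also of opposite sign, and moved the median of all rows by 0.15. miR-128-3p stayed positive and uncalled in every alternative run.

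With 1 library left out in turn, log2 fold changes ranged from -0.16 to 0.15 for miR-124-3p, from -0.23 to 0.052 for miR-124-5p, from -0.49 to 0.12 for miR-128-1-5p, from -0.024 to 0.29 for miR-128-2-5p and from 0.093 to 0.61 for miR-128-3p. The difference in the log2 ratio of miR-128-3p to miR-124-3p ranged from -0.028 to 0.74, that of summed miR-128 5p to 3p from -0.69 to -0.065, that of miR-128-1-5p to miR-128-2-5p from -0.59 to 0.046, and that of the miR-124 arms from -0.12 to 0.050. Calls stayed at 0 in these fits, for microRNAs and for hairpins. The neuron list had 11 to 16 positive members of 24, a count added after seeing the data. The cause of these changes was not tested.

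The labels name no pairing. Same-numbered replicates carry neighbouring running numbers in the submitters' titles. Their deviations from the group means correlated at -0.728, -0.515 and 0.305 over 351 microRNAs. Between injured and sham libraries that were not neighbours, the values ran from -0.479 to 0.751. With 3 libraries a group these deviations sum to 0, so the correlations are tied together and cannot decide whether neighbours form pairs. The main test took no pairs, since none is named. A replicate block on the neighbouring numbers, added after seeing the data, called 0. With it 29 of 534 had an unadjusted edgeR p under 0.05, against 12 without it. The block gave 0.34 ± 0.14 (SE) for miR-128-3p (edgeR unadjusted p = 0.073, adjusted p = 0.592). It gave -0.042 ± 0.084 for miR-124-3p, -0.095 ± 0.11 for miR-124-5p, -0.21 ± 0.12 for miR-128-1-5p and 0.068 ± 0.17 for miR-128-2-5p. Each of these SEs was smaller than without the block. With 3 animals a group, the 95% interval of a typical microRNA reached 0.56 log2 units to either side. miR-124-3p had at least 55126 reads in every library and the miR-128 5p rows at least 293, and the part of depth was not tested.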
